A study of Mus musculus with 8 samples.

Results

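Endothelial cells form the inner lining of blood vessels, and 348 of the 24376 cells that passed quality filtering in this single-cell data set of the mouse dentate gyrus were endothelial cells by their markers, 1.43% of the cells (exact 95% binomial interval 1.28 to 1.58%, covering counting error only). They were chosen by measured counts. A barcode needed more than 500 genes and less than 10% mitochondrial UMIs (unique molecular identifiers, each standing for 1 captured transcript), at least 3 of the endothelial genes Cldn5, Flt1, Pecam1, Ly6c1 and Itm2a, at most 1 of the mural genes Vtn, Rgs5, Higd1b, Kcnj8 and Ndufa4l2, and at most 1 of Mog, Mag, Mobp, Cx3cr1, Pdgfra, Slc1a2, Gja1, Stmn2 and Eomes, which mark oligodendrocytes, microglia, glial precursors, astrocytes, neurons and neuronal precursors. The full data set held 26036 barcodes. Levels of these 19 selection genes are described below and were not tested, and because the rule reads the same cells, levels beside other cell types, also chosen by markers, are given as descriptions, with a test read only for eGFP and for differences of age effects.

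All mice carried Nestin-GFP, in which a green fluorescent protein follows Nestin regulatory sequences, together with Ki67-creERT2 and a Cre-dependent tdTomato reporter, on a mixed background, and all received tamoxifen for 6 days and were culled on day 8. The groups differ in age, at 1 month (1 experiment), 2 months (3 experiments) and 6 months as labelled, a group that the design text describes as 6 to 8 months old (3 experiments). Each experiment pooled several male and female mice, so an experiment is the replicate throughout, and cells were sorted as GFP+tdT+ or GFP+tdT-, with 1 library of the first 2-month experiment also taking GFP-tdT- cells. The 2-month libraries were made with Version 2 of the droplet chemistry and the others with Version 3, so that age and chemistry cannot be told apart in any comparison with 2 months. The sort was designed for stem cells and not for vessels, which limits these cells as a sample of the vasculature, and there was no group without the transgenes.

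Brain endothelial cells differ from those of most organs in that they are sealed by tight junctions and carry nutrients across by dedicated transporters, which together make up the blood-brain barrier. Wnt ligands from neural cells, read through Fzd4 and beta-catenin, induce and keep this barrier programme, and vascular endothelial growth factor and angiopoietin receptors control vessel growth and quiescence. Along the vessel, arterial, capillary and venous endothelial cells use partly different genes. Outside the endothelium, pericytes and smooth muscle cells, together called mural cells, wrap the same vessels, and stem cells of the dentate gyrus lie close to them.

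ETS factors such as Erg, Fli1 and Ets1 are general regulators of endothelial genes and bind around the core GGAA, so the 250 bases upstream of the start site of 3 endothelial genes are shown to let a reader see where the letters GGAAG, or CTTCC on the other strand, occur. Cldn5 encodes the main tight junction claudin of brain vessels, Flt1 a receptor for vascular endothelial growth factor, and Tie1 an orphan receptor tyrosine kinase that acts with the angiopoietin receptor. Sequences are from RefSeq (GRCm38.p6), written 5′ to 3′ on the gene's strand, with matches in capitals. They lie at chr16:18776597-18776846 on the plus strand for Cldn5, at chr5:147726012-147726261 on the minus strand for Flt1, and at chr4:118489850-118490099 on the minus strand for Tie1.
Cldn5: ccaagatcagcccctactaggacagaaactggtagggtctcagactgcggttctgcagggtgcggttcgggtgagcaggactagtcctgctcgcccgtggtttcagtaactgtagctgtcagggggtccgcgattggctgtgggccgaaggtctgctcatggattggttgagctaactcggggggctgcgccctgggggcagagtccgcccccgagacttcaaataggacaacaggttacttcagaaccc
Flt1: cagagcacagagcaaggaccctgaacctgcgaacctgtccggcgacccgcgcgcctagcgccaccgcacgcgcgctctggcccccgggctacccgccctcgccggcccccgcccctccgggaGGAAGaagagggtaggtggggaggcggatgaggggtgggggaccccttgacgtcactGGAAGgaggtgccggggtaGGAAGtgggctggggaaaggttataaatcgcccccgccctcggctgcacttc
Tie1: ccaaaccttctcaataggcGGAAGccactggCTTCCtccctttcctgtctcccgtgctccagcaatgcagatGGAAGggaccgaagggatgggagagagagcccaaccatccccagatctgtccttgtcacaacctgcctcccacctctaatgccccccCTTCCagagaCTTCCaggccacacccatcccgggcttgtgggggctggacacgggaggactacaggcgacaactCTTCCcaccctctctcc
The Cldn5 window held 0 matches, the Flt1 window 3 and the Tie1 window 6. Across all 32851 RefSeq promoters in the same table, 64.1% held at least 1 match in these 250 bases. Among 18 promoters of the other endothelial identity genes, which covered 13 of the 18 genes listed, the share was 72.2%, and among 18 promoters of endothelial transcription factors, covering 10 of 18 genes, it was 55.6%. A match of 5 letters is a description of the sequence and was not tied to binding here.

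The share of endothelial cells differed between experiments. In the 1-month experiment 44 cells, or 1.34% of the filtered cells, were endothelial. At 2 months the numbers were 124, 61 and 22 cells (2.96, 1.503 and 1.23%), and at 6 months 27, 23 and 47 cells (1.07, 0.682 and 0.910%). All 3 experiments at 6 months lay below all 4 younger ones. The denominator is all sorted cells, and the sort gates were set for GFP and tdTomato. Set against mural cells from the same experiments, of which there were 887, the number of endothelial cells per mural cell was 0.349 at 1 month, 0.756, 0.762 and 0.489 at 2 months, and 0.351, 0.117 and 0.237 at 6 months. In the first 2-month experiment, 107 of the 124 cells came from the library sorted as GFP+tdT- only and 17 from the library that also took GFP-tdT- cells. No endothelial barcode sequence occurred in more than 1 library (0, against 49 among all filtered cells).

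Endothelial cells were shallow. Their median depth was 1736.5 UMIs per cell, against 2136 in mural cells and 4659 over all filtered cells. By experiment the median was 3972 UMIs at 1 month, 1548, 783 and 1172.5 at 2 months, and 1651, 2557 and 3143 at 6 months. The mural medians were 2765.5 UMIs, then 1155, 888 and 948, then 1863, 2617 and 3251.5. The pooled medians mix the experiments in different shares, and the order of endothelial and mural cells differed between experiments. Summed over cells, an experiment rested on between 48736 and 226066 endothelial UMIs, 801434 in all, and levels below are these sums brought to a common total as CPM (1 CPM is 1e-06 of the UMIs), not scaled for transcript length. Because 6 cells held between 19.8 and 89.5% haemoglobin UMIs, a sign of adhering or burst red blood cells, haemoglobin genes were left out of the total. These 6 cells held 33420 haemoglobin UMIs and the other endothelial cells together 69. Without these 6 cells, an alternative added after the data were seen, 10 genes in place of 8 were called at 6 months against 1 month.

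Cells on either side of the threshold are given as a description. Among the 23 cells with exactly 3 of the 5 endothelial genes, Cldn5 stood at 6761 CPM and the cadherin gene Cdh5, which the rule did not use, at 279 CPM, with a median depth of 1041 UMIs. Among the 11 cells with 2 of the genes that met every other limit, Cldn5 stood at 71.3 CPM and Cdh5 at 17.8 CPM, at a median of 2739 UMIs. The rule itself counts Cldn5, so nothing is read from its level there. The limits on other cell types took out more cells. Of 556 filtered cells with at least 3 endothelial genes, 208 were left out, 153 of them for mural genes and 74 for the other markers, with 19 counted under both. The 47 cells with 2 mural genes that met the other limits held 8826 CPM of Cldn5, 3071 CPM of Rgs5 and 110 CPM of Vtn, beside 9307, 2057 and 21.4 CPM in the 152 members with 1 mural gene.

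The selection genes were high in all 7 experiments. In what follows, levels are given in the order 1 month, 2 months (experiments 1, 2 and 3) and 6 months (experiments 1, 2 and 3). Cldn5 stood at 9135 CPM, then at 9231, 9963 and 5964 CPM, then at 8289, 9056 and 8565 CPM, and it had a UMI in every member, while the mean over mural cells was 10.2 CPM. Ly6c1, a small glycosylphosphatidylinositol-anchored surface protein of capillary endothelium, was at 3568, then 5285, 7333 and 5028, then 5460, 5504 and 4807 CPM. Itm2a, a transmembrane protein, was at 6487, then 5894, 9567 and 8615, then 5421, 4453 and 5820 CPM. For each of these 3 genes the 2-month experiments were more variable than the 6-month ones. Flt1 lay between 1261 and 2502 CPM, and Pecam1, the platelet endothelial adhesion molecule, between 400.3 and 739 CPM with a UMI in 63.8% of members.

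Some of the genes that counted against a cell were still present. Vtn had a mean of 11.6 CPM in endothelial cells and 22687 CPM in mural cells. Rgs5, a regulator of G protein signalling that marks pericytes, was present in every experiment, at 1108, then 706, 324 and 800, then 890, 1067 and 1578 CPM, and the mural mean was 6896 CPM. In cells with oligodendrocyte markers Rgs5 stood at 2.03 CPM and Vtn at 8.83 CPM. Of the 348 cells, 152 (43.7%) held 1 mural gene. Stmn2, a neuronal microtubule regulator, had a UMI in some members of every experiment, at 88.6, then 212, 54.0 and 68.6, then 158, 150 and 112 CPM, and was at 0 in mural cells, while Eomes, which marks intermediate progenitors, had 0 UMIs.

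**Figure D1:**
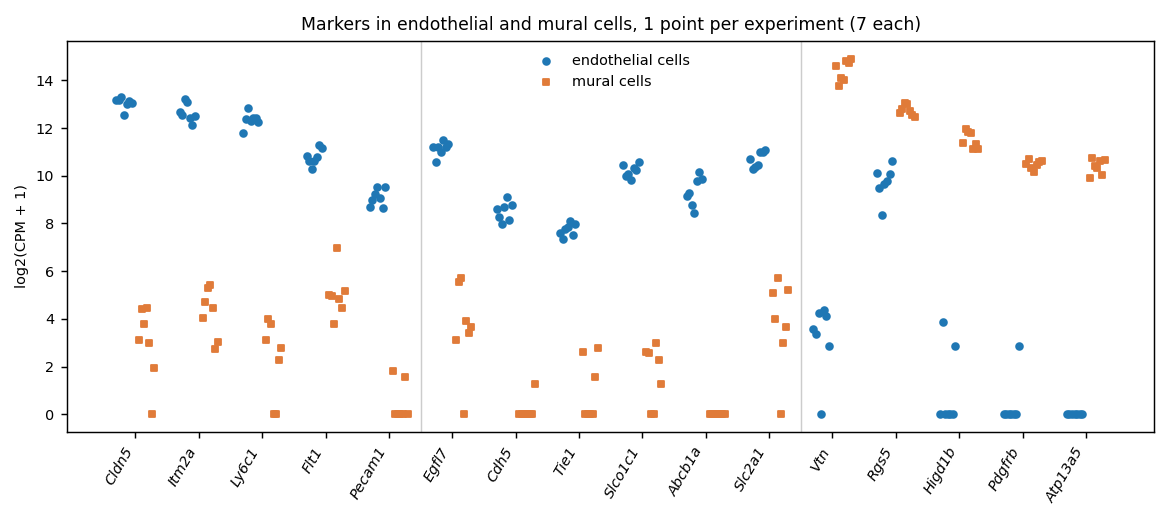
Level of 16 marker genes on the scale log2(CPM + 1), with 1 point for each of the 7 experiments in endothelial cells (blue circles) and mural cells (orange squares). The left block holds the endothelial selection genes, the middle block genes the rule did not use, and the right block mural genes; Rgs5 was the 1 mural gene with a high level in endothelial cells of every experiment.

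Further endothelial genes outside the rule were read in the same cells. Of the 2183 genes tested between endothelial and mural cells of the same experiments, 1446 were called, 66.2% (701 higher, or 32.1%, and 745 lower, or 34.1%), and because both groups were chosen by markers nothing is read from the number. Of 18 further endothelial identity genes, 17 had a UMI in at least 20% of endothelial cells and 3 in at least 20% of mural cells. A gene was tested when it reached that share in either cell type, so most members of the endothelial lists entered through the cells where they are high, and their levels are given without a count of calls. Egfl7, a secreted factor of endothelial cells, stood at 2382, then 1542, 2360 and 2034, then 2928, 2352 and 2584 CPM, and the mural mean was 19.98 CPM. The junctional cadherin Cdh5 was at 393, then 305, 252 and 411, then 554, 284 and 435 CPM, against a mural mean of 0.207 CPM. Sox18, a transcription factor of vascular development, was at 0 in mural cells in all 7 experiments and between 323 and 1003 CPM in endothelial cells. Erg, the defining ETS factor, was the 1 gene of the list that was not tested, with a UMI in 3.16% of members and 0 in mural cells, whereas the ETS factors Fli1 (25.3% of members) and Ets1 (48.3%) were more often detected.

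Of 24 listed transporters of the blood-brain barrier, 19 had a UMI in at least 20% of endothelial cells and 2 in at least 20% of mural cells. The glucose transporter Slc2a1 stood at 1645, then 1251, 1315 and 1417, then 2018, 2051 and 2130 CPM. Slco1c1, which carries thyroxine, was at 1379, then 1020, 1063 and 891, then 1266, 1201 and 1534 CPM, and the mural mean was 3.21 CPM. Slco1a4, an organic anion transporter, had a UMI in 89.9% of members. The efflux pumps Abcb1a and Abcg2 had means of 704 ± 294 and 760 ± 114 CPM (SD, n = 7), and Slc7a5 with its partner Slc3a2, which import large neutral amino acids, 932 ± 248 and 815 ± 73.6 CPM. Mfsd2a, which carries lysolipids and limits transcytosis, was at 737, then 300, 396 and 320, then 673, 417 and 565 CPM, while Plvap, the diaphragm protein of leaky and fenestrated vessels, had 0 UMIs in all 348 cells. The organic anion transporter Slc22a8 had means of 386 CPM in endothelial and 350 CPM in mural cells and a higher endothelial level in 4 of 7 experiments.

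Among 16 junction genes, 10 had a UMI in at least 20% of endothelial cells and 4 in at least 20% of mural cells. Ocln, a transmembrane protein of tight junctions, had a mean of 335 ± 64.0 CPM against 9.57 CPM in mural cells, and Lsr, which forms tricellular contacts, 424 ± 106 CPM against 3.91 CPM. The scaffold Tjp1 was at 207 ± 106 CPM against 184 CPM. Cgn, a cytoplasmic plaque protein, had 0 UMIs. In the Wnt list, the receptor Fzd4 was sparse, with a UMI in 13.2% of members and a mean of 64.8 CPM, and its co-activators Adgra2 and Reck were detected in 6.32 and 5.46% of members. Targets and effectors were better measured. Lef1, the transcription factor that binds beta-catenin, had a mean of 261 ± 73.9 CPM against 39.5 CPM in mural cells, and Sox17 674 ± 92.6 CPM against 0, whereas Axin2, a general feedback target, was lower in endothelial cells in all 7 experiments (41.6 against 82.3 CPM).

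Of 19 listed growth factor receptors and partners, 14 had a UMI in at least 20% of endothelial cells and 1 in at least 20% of mural cells. Kdr, the main signalling receptor for vascular endothelial growth factor, had a mean of 408 ± 155 CPM, the angiopoietin receptor Tek 218 ± 46.9 CPM, the activin-like receptor Acvrl1 485 ± 102 CPM and Ramp2, the subunit that makes Calcrl a receptor for adrenomedullin, 1780 ± 407 CPM. In the Notch list 2 of 11 genes reached 20% of endothelial cells and 6 reached 20% of mural cells. The ligand Dll4 had a mean of 71.6 CPM in endothelial cells and 1.69 CPM in mural cells and was too sparse to be tested between them. The targets Heyl, Hey2 and Nrarp had means of 0.791, 0.659 and 42.4 CPM in endothelial cells against 316, 125 and 315 CPM in mural cells, and Hes1 had like means of 849 and 844 CPM.

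Other groups separated the cells less simply. Among 18 matrix genes, 10 had a UMI in at least 20% of endothelial cells and 9 in at least 20% of mural cells. Fibronectin (Fn1) and the integrin subunit Itga6, which anchors cells to laminin, were higher in endothelial cells (390 ± 119 and 199 ± 84.0 CPM against 3.05 and 3.77 CPM), while the laminin chain Lamc1 and nidogen (Nid1) were higher in mural cells (42.2 and 31.2 CPM against 310 and 206 CPM), and the collagen chain Col4a1 had like means of 342 and 368 CPM. Of 23 genes of antigen presentation and interferon response, 15 reached 20% of endothelial cells and 6 reached 20% of mural cells. The class I chain H2-D1 stood at 1396 ± 366 CPM, and Ly6a at 4066 ± 871 CPM against 10.6 CPM in mural cells. Of 10 genes of caveolae and transcytosis, 7 reached 20% of endothelial cells and 1 reached 20% of mural cells. Cav1, the coat protein of caveolae, was at 283 ± 108 CPM against 25.1 CPM, and Ehd2 was lower (82.0 against 127 CPM). Klf2, induced by flow, gave the most UMIs of the transcription factors, at 3263, then 3018, 2000 and 4045, then 2671, 4653 and 3838 CPM.

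Genes of division and of sprouting tip cells were sparse. Mki67, the proliferation antigen whose locus drives the creERT2 here, had a UMI in 0 of 348 cells, which allows a share of cells with a UMI of up to 0.862% (3 of 348). Top2a had a UMI in 1 cell, Cdk1 in 3, and the replication clamp gene Pcna in 22 (6.32%), and 10 cells (2.87%) held at least 2 of 16 cell cycle genes. These are shares of cells with a UMI at a shallow depth. Of the tip cell genes, Esm1 had 0 UMIs, Apln was detected in 1.15% and Angpt2 in 2.30% of members, and no gene of that list reached 20% of members. Dll4 was the most abundant of the list, with 56 UMIs. The list summed to a mean of 259 CPM, against 195 CPM in mural cells. In each age comparison 1 gene of the list passed the filter and was not called.

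Vessel segments were described by counting markers in each cell. A cell was placed in the arterial-marker class when it held at least 2 of 14 arterial genes and more arterial than venous genes, and in the venous-marker class by the same rule with 12 venous genes. This gave 137 arterial-marker cells (39.4%), 44 venous-marker cells (12.6%) and 167 cells of neither class, of which 160 held at least 2 of 8 capillary markers. The classes are ranges of a count, and 167 cells lay near the limit. Depth moved with them, at medians of 2579 and 2225.5 UMIs in the arterial-marker and venous-marker cells and 1263 UMIs in the rest, and the arterial-marker share ran from 11.5% in the shallowest experiment (the second at 2 months) to 70.5% at 1 month, so no difference in shares between ages is read from them. Capillary genes were abundant over all cells, with Spock2 at 1407 ± 169 CPM and the carbonic anhydrase Car4 at 1246 ± 354 CPM, and all 8 had a UMI in at least 20% of members. Of the 14 arterial genes 3 reached that share, and of the 12 venous genes 2. The most abundant were Sox17 and Slc38a5, with 513 and 204 UMIs, while Gja5 and Selp had 0 UMIs and Ackr1 a UMI in 0.287% of members. Sox17, which is also on the Wnt list, stood at 876 CPM in arterial-marker and 498 CPM in venous-marker cells. Slc38a5 stood at 141 and 696 CPM. The shares of the classes are therefore not read as shares of arterial and venous cells.

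Within these classes, 3 experiments had at least 5 cells of each, the first at 2 months (46 and 13 cells) and the first and the third at 6 months (7 and 7, and 29 and 13 cells). Outside both marker lists, 16 of 2393 genes were called between the classes, 0.669% (11 higher in arterial-marker cells, 0.46%, and 5 lower, 0.209%). Scaling by total UMIs in place of TMM gave 10 higher and 9 lower. The classes came from counts of the same cells, and the values are given as a description. S100a10, an annexin partner, was at 307, 508 and 153 CPM in arterial-marker cells and had 0 UMIs in venous-marker cells of all 3 experiments, at least 6.94-fold higher when set against a floor of 3 UMIs over the venous-marker cells. It passed the filter on shares of cells only through the arterial-marker cells, so its call is not read as a result. Glul, glutamine synthetase, was at 2431, 1525 and 1553 CPM against 524, 83.6 and 483 CPM, and the taurine transporter Slc6a6 at 1270, 2146 and 2220 CPM against 384, 1086 and 966 CPM. In the other direction, the actin-binding Tmsb10 was at 1456, 1807 and 1144 CPM against 7338, 4429 and 4483 CPM in venous-marker cells, and Ctla2a, which inhibits cysteine proteases, at 515, 1017 and 915 CPM against 1258, 3677 and 1655 CPM. The groups do not overlap for these 5 genes, which the rule for naming them required. The calls of Slc6a6 and Ctla2a were lost without the 2-month experiment (adjusted p = 0.267 and 0.320, edgeR) and without the third 6-month experiment (adjusted p = 0.247 and 0.164, edgeR). DESeq2 called 2 genes in place of 16, as did edgeR with no replicate block, and among the losses were S100a10 in the first (adjusted p = 0.129) and Glul in the second (adjusted p = 0.0538). The lysosomal protease gene Ctsd was called lower on the strength of the 2-month experiment (197 against 2376 CPM) and turned the other way in the first 6-month experiment (113 against 83.6 CPM), and its log2 difference was -2.82 with all 3 experiments and -0.75 without the 2-month one. Venous-marker cells of that experiment also held the microglial gene C1qa at 1537 CPM, and its part in the result was not tested.

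**Figure D2:**
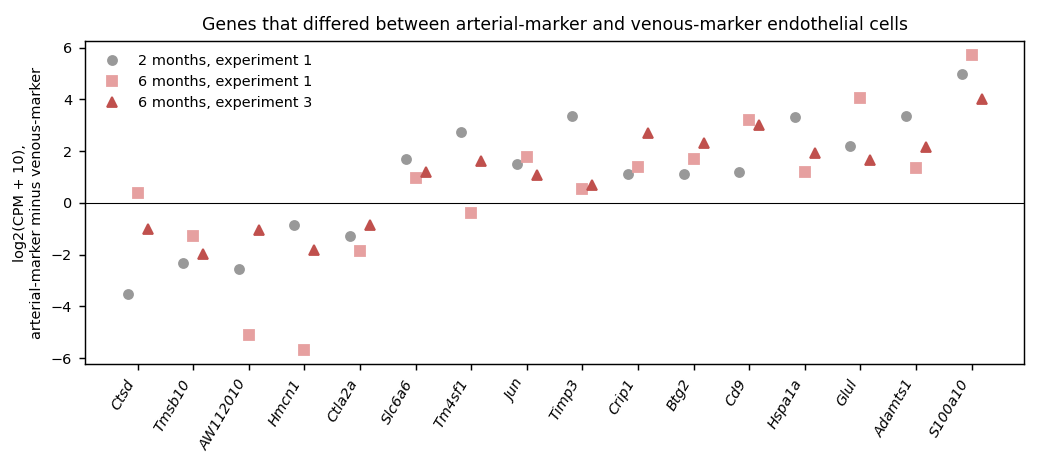
Difference between arterial-marker and venous-marker endothelial cells for the 16 genes called, as log2(CPM + 10) in arterial-marker minus venous-marker cells (vertical axis), with 1 point for each of 3 experiments. S100a10, Glul and Adamts1 lie above 0 and Tmsb10, Hmcn1 and Ctla2a below 0 in every experiment, whereas Ctsd and Tm4sf1 have points on both sides.

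The comparison of ages asks whether vessel cells changed over the period in which stem cells are lost. Between 6 months and 1 month, which share the Version 3 chemistry, 8 of 3146 genes were called by edgeR's quasi-likelihood test at a Benjamini-Hochberg adjusted p below 0.05, 0.254% of those tested, with 5 higher (0.159%) and 3 lower (0.0954%). At an unadjusted p below 0.05 there were 165 genes, and DESeq2 called 0 (41 unadjusted). There was 1 experiment at 1 month, and the test assumes that it varies like the others. Leaving out the first, the second or the third 6-month experiment gave 5, 5 and 2 called genes, leaving out the first 2-month experiment 13, and leaving out only its library with GFP-tdT- cells 5. Fmo2 stayed called without any 1 of the 2-month or 6-month experiments but not with filterByExpr in place of the filter on shares of cells (adjusted p = 0.789, edgeR) or with DESeq2 (adjusted p = 0.926), and the other 7 genes lost the call without at least 1 of the 6-month experiments. Scaling by total UMIs moved the median of all genes by -0.14 on the log2 scale and gave 2 higher and 3 lower genes.

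Enzyme genes were among the 5 higher ones. Fmo2 (chr1:162874317-162898726, minus strand, GRCm38), a flavin-containing monooxygenase that oxidises drugs and other xenobiotics, was at 0 at 1 month, at 9.23, 0 and 22.9 CPM at 2 months and at 198, 117 and 93.2 CPM at 6 months. All 3 experiments at 6 months lay above all 4 others. With 32 UMIs at 6 months and 0 at 1 month, the level was at least 7.09-fold higher, set against a floor of 3 UMIs over the 1-month cells, and the counting interval of the ratio starts at 5.44. Fmo2 passed the filter on shares of cells only through the 6-month cells, where it is high. Its call is therefore not read as a result, and the levels are given as a description. Xdh (chr17:73883895-73950196, minus strand), the xanthine dehydrogenase of purine breakdown, was at 5.54 CPM at 1 month from 1 UMI, at 55.4, 72.1 and 114 CPM at 2 months and at 59.3, 200.1 and 87.0 CPM at 6 months. The ratio of 6 months to 1 month was 19.3, with a counting interval of 3.197 to 787, and the 2-month values overlapped those at 6 months. With 1 UMI at 1 month, Xdh too passed the filter only through the 6-month cells. Its call was lost with no gene filter and is not read as a result.

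Itih5 (chr2:10153571-10256529, plus strand), whose family of proteins binds hyaluronan in the matrix, was at 111 CPM at 1 month, at 212, 90.1 and 297 CPM at 2 months and at 257, 500.4 and 733 CPM at 6 months, a log2 fold change of 2.32 ± 0.47 (SE, adjusted p = 0.0102, edgeR). Without the third experiment at 6 months, which holds the largest number of UMIs of that age, it was 1.87 with an adjusted p of 0.282, and only 2 genes were called in all. Itih5 was also higher at 6 months than at 2 months (1.34, adjusted p = 0.00506, edgeR), with 1 experiment of each age overlapping and the call lost without the same experiment (adjusted p = 0.275). Cystm1, a small transmembrane protein, was at 44.3 CPM, then 134, 54.0 and 137, then 336, 267 and 186 CPM (2.50 ± 0.56), and every 6-month value lay above every younger one. With 8 UMIs over the 44 cells at 1 month, Cystm1 passed the filter only through the 6-month cells. Its call was lost with no gene filter and is not read as a result. The gene 8430408G22Rik was at 77.6 CPM, then 194, 360 and 457, then 237, 384 and 279 CPM (1.99 ± 0.48, adjusted p = 0.0494, edgeR), so its 2-month level was as high as at 6 months.

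Among the lower genes was Sparc (chr11:55394500-55423183, minus strand), a secreted glycoprotein that binds collagen in growing vessels, at 3751 CPM at 1 month, 2003, 1603 and 1897 CPM at 2 months, and 1088, 1134 and 1708 CPM at 6 months. It fell by 1.43 ± 0.29 on the log2 scale (adjusted p = 0.00966, edgeR) and was the 1 called gene of 11 tested matrix genes, beside 0.254% of all genes tested. Mural cells showed Sparc levels of 2463 CPM at 1 month, 1299, 1127 and 1150 CPM at 2 months and 1235, 1236 and 1227 CPM at 6 months, and the difference between the cell types was not called. Cdkn1c (chr7:143458339-143461050, minus strand), an inhibitor of cyclin-dependent kinases, was at 620 CPM, then 249, 144 and 137, then 98.9, 317 and 186 CPM (-1.56 ± 0.37, adjusted p = 0.0440, edgeR). The transgene eGFP was at 643 CPM, then 217, 252 and 274, then 119, 200.1 and 87.0 CPM (-2.32 ± 0.37, adjusted p = 0.000217, edgeR). For each of the 3 genes the 1-month experiment held the highest value of all 7. In mural cells eGFP was at 3001 CPM, then 1560, 3317 and 3869, then 1842, 1991 and 1157 CPM, and the difference between the cell types was not called. The cells were sorted on GFP, and the part of the sort in the eGFP difference was not tested.

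**Figure D3:**
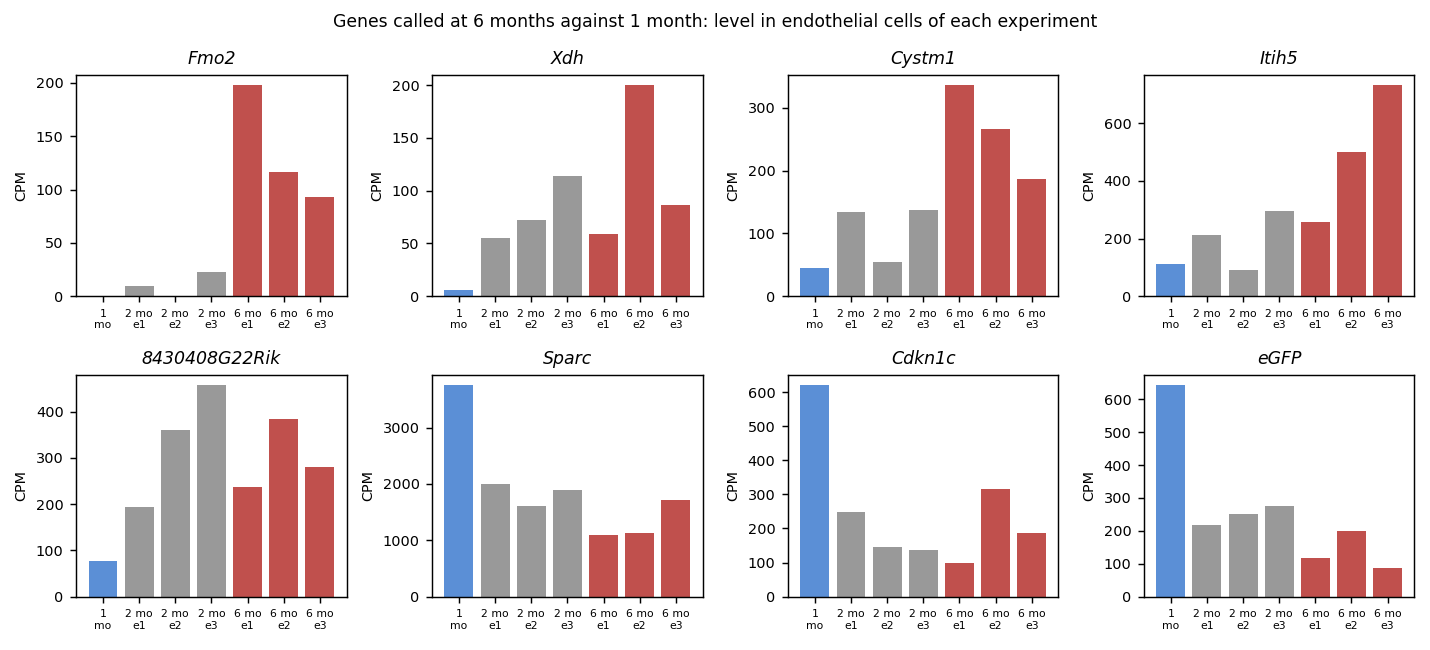
Level in CPM (vertical axis, from 0) of the 8 genes called between 6 months and 1 month in endothelial cells, with 1 bar per experiment and no error bars, blue for 1 month, grey for 2 months and red for 6 months. Fmo2 and Cystm1 are higher in each of the 3 experiments at 6 months than in any younger one, and Sparc, Cdkn1c and eGFP are highest at 1 month.

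Between 1 and 6 months, 0 of 22 tested barrier transporters, 17 identity genes, 12 junction genes, 16 receptors and 14 transcription factors were called. With 0.254% of all genes called, a list of this size would on average hold fewer than 1 called gene, and nothing is read from these counts. Their median log2 fold changes were 0.46, 0.37, 0.11, 0.36 and 0.27, beside -0.00 over all genes tested. The median was 0.44 over 21 tested genes of antigen presentation and interferon response and 0.62 over 19 immediate early and stress genes, again with 0 called in each. Of the zonation markers, the clotting factor gene Vwf had the largest difference and missed the threshold (2.20 ± 0.56, adjusted p = 0.0630, edgeR). It was at 44.3 CPM at 1 month, 171, 90.1 and 137 CPM at 2 months and 218, 183 and 199 CPM at 6 months. Over 17 alternatives Vwf was called in 5, among them the Version 3 experiments alone and each 2-month experiment left out. Vwf passed the filter on shares of cells only through the 6-month cells, so these calls are not read as a result.

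Between 6 and 2 months many more genes differed, and the chemistry cannot be told apart from age. Of 2149 genes, 173 were called (8.05%), with 91 higher (4.23%) and 82 lower (3.82%), and scaling by total UMIs gave 97 higher and 50 lower. DESeq2 called 64 genes and edgeR with no gene filter 113. Without the second or the third 6-month experiment 95 and 81 genes were called. Ribosomal, mitochondrial and multicopy transcripts were among the genes that differed widely, as were others such as Ier5l and Rab12, with ratios of 6 to 2 months of 16.6 (counting interval 6.13 to 62.9) and 10.9 (4.37 to 35.2). At 2 months Ier5l and Rab12 held 4 and 5 UMIs, and Gm42418 and mt-Atp8, given below, 32 and 13. All of these passed the filter on shares of cells only through the 6-month cells, where they are high, so their values are given as descriptions. Gm42418, which overlaps a ribosomal RNA repeat, was at 6288 CPM at 1 month, 92.3, 126 and 114 CPM at 2 months and 3601, 6871 and 3764 CPM at 6 months. The ribosomal protein gene Rpl23a was at 233 CPM, then 1846, 1099 and 1485, then 257, 200.1 and 168 CPM. In both genes the 1-month experiment lay with the 6-month experiments, as did mt-Atp8 (371 CPM, then 46.2, 36.0 and 22.9, then 593, 1001 and 491 CPM) and mt-Nd1 (1213 CPM, then 3803, 4324 and 3702, then 1306, 834 and 1155 CPM). The female-specific transcript Xist was also lower at 6 months, by 1.59 ± 0.31 on the log2 scale, at 133 CPM, then 905, 306 and 731, then 158, 217 and 292 CPM, and here too the 1-month value lay with the 6-month values. The Y-linked gene Ddx3y, with 4 to 7 UMIs in each experiment, was at 38.8 CPM, then 23.1, 90.1 and 91.4, then 79.1, 66.7 and 24.8 CPM, and overlapped between the ages.

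Named endothelial genes were among the genes called between 6 and 2 months. The chemokine Cxcl12, a capillary marker, was at 4698 CPM at 1 month, 1445, 1928 and 1097 CPM at 2 months and 3304, 3669 and 3037 CPM at 6 months, 1.08 ± 0.23 higher on the log2 scale than at 2 months (adjusted p = 0.000372, edgeR). The efflux pump Abcb1a was at 559 CPM, then 618, 432 and 343, then 890, 1151 and 932 CPM (0.92 ± 0.26, adjusted p = 0.0128, edgeR), and the phosphatase Ptprb, the sialomucin Emcn, the adhesion receptor Adgrl4, the taurine transporter Slc6a6 and the integrin subunit Itgb1 were higher by 0.94, 0.89, 1.14, 0.79 and 1.00. In the Wnt list Tspan12, which assists Fzd4, was at 49.9 CPM, then 157, 234 and 206, then 59.3, 100.1 and 74.5 CPM, and the forkhead factor Foxf2 at 55.4 CPM, then 175, 216 and 183, then 39.6, 117 and 80.7 CPM. They fell by 1.32 ± 0.41 and 1.27 ± 0.41 on the log2 scale (adjusted p = 0.0309 and 0.0364, edgeR). For Tspan12 and Foxf2, too, the 1-month value resembled the 6-month values. Over 18 alternatives the calls of Cxcl12 and Adgrl4 were never lost, whereas Tspan12 stayed called in 9, Foxf2 in 6, Itgb1 in 10, Emcn and Slc6a6 in 11, and Abcb1a and Ptprb in 13, and the losses of all 7 include DESeq2 and at least 1 experiment left out.

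Of 19 tested genes of antigen presentation and interferon response, 1 was higher and 2 were lower at 6 months than at 2 months. Over all genes tested the shares were 4.23 and 3.82%, and nothing is read from these counts. B2m, the light chain of class I molecules, was at 593 CPM at 1 month, 1911, 2414 and 2194 CPM at 2 months, and 732, 1151 and 1062 CPM at 6 months, and fell by 1.20 ± 0.24 from 2 to 6 months (adjusted p = 0.000196, edgeR). The heavy chain H2-K1 was at 482 CPM, then 309, 216 and 549, then 495, 1084 and 1180 CPM, and rose by 1.40 ± 0.30 (adjusted p = 0.00132, edgeR), although 1 experiment of each age overlapped and the call was lost without the third 6-month experiment (adjusted p = 0.099, edgeR). Ly6e fell by 1.09 ± 0.23. Of 19 immediate early and stress genes, 4 were higher and 0 lower, beside 4.23 and 3.82% of all genes tested. These were Ier3 (1.42 ± 0.33), Ier2, Cyr61 and Zfp36. All 4 calls were lost without the third 6-month experiment (adjusted p = 0.055, 0.122, 0.312 and 0.169, edgeR). Fos varied more between experiments of an age than between ages, from 504.5 to 4787 CPM over the 7 experiments. Summed microglial markers in endothelial cells were 49.9 CPM, then 1468, 72.1 and 183, then 19.8, 50.04 and 49.7 CPM, and summed oligodendrocyte markers 427 CPM, then 1242, 3567 and 983, then 653, 951 and 708 CPM, both highest in a 2-month experiment, and their part in the comparison was not tested.

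To ask whether a change with age was specific to the endothelium, the same ages were compared in mural cells of the same experiments, chosen because only 2 experiments held at least 10 microglia. The difference of the age effect between endothelial and mural cells was called for 2 of 3146 genes between 6 months and 1 month (0.0636%) and for 5 of 2149 genes between 6 and 2 months (0.233%). Csrp1, a cytoskeletal LIM protein, was named in both. In endothelial cells it was at 183 CPM, then 194, 288 and 183, then 277, 334 and 261 CPM, and in mural cells at 196 CPM, then 105, 207 and 188, then 27.9, 15.4 and 69.4 CPM. All 3 mural values at 6 months lay below the 4 younger ones. The difference of the 2 age effects was 2.83 ± 0.49 for 6 months against 1 month (adjusted p = 0.000759, edgeR).

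Cystm1 differed as well, at 2.50 ± 0.52 (adjusted p = 0.00781, edgeR), and its mural levels of 299 CPM, then 497, 350 and 335, then 230, 291 and 311 CPM overlapped between ages while the endothelial levels did not. That call was lost with total UMIs (adjusted p = 0.0554, edgeR), with no gene filter (adjusted p = 0.141, edgeR) and with DESeq2 (adjusted p = 1.00), which called neither Cystm1 nor Csrp1. As in the comparison of ages above, Cystm1 passed the filter between 6 months and 1 month only through the 6-month endothelial cells. Its call is therefore not read as a result, and the levels are given as a description. For Cxcl12 the difference between 6 and 2 months was 1.66 ± 0.25 (adjusted p = 1.8e-06, edgeR). Its mural levels were 239 CPM, then 391, 389 and 293, then 307, 189 and 237 CPM. Both cell types share the chemistry of their libraries in this comparison, but an effect of chemistry that differs between cell types was not tested. The endothelial Cxcl12 level at 1 month, given above, also lay above all 2-month values. Between 6 months and 1 month the difference of Cxcl12 between the cell types was not called. Foxq1, a forkhead factor of brain endothelium, was at 665 CPM, then 674, 342 and 571, then 356, 984 and 733 CPM in endothelial cells and at 12.9 CPM, then 65.2, 25.9 and 62.7, then 13.96, 11.6 and 13.01 CPM in mural cells (2.38 ± 0.53, adjusted p = 0.0168, edgeR). Endothelial values overlapped between the ages for Foxq1. Genes entered this comparison by their share of endothelial cells alone, and in mural cells Foxq1 had 40 UMIs in all. Ndrg1, a stress-responsive gene, was at 355 CPM, then 258, 270 and 274, then 415, 367 and 522 CPM in endothelial cells and at 38.9 CPM or less in mural cells, with 21 mural UMIs in all, and its difference was 3.10 ± 0.77 (adjusted p = 0.0367, edgeR). The values of Foxq1 and Ndrg1 therefore rest on mural counts close to 0. Calls of Csrp1, Cystm1, Foxq1 and Ndrg1 between 6 and 2 months were lost without the first 2-month experiment, where the adjusted p values in edgeR lay between 0.316 and 0.736, whereas Cxcl12 stayed called in each of the alternatives run. The number of genes called between 6 and 2 months was 2 without the first, 14 without the second and 3 without the third 2-month experiment, 15 and 2 without the first and the second 6-month experiment, and 2 without the haemoglobin-rich cells. Between 6 months and 1 month it was 4 and 8 without the first and the second 2-month experiment and 9, 4 and 6 without each of the 6-month experiments in turn.

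**Figure D4:**
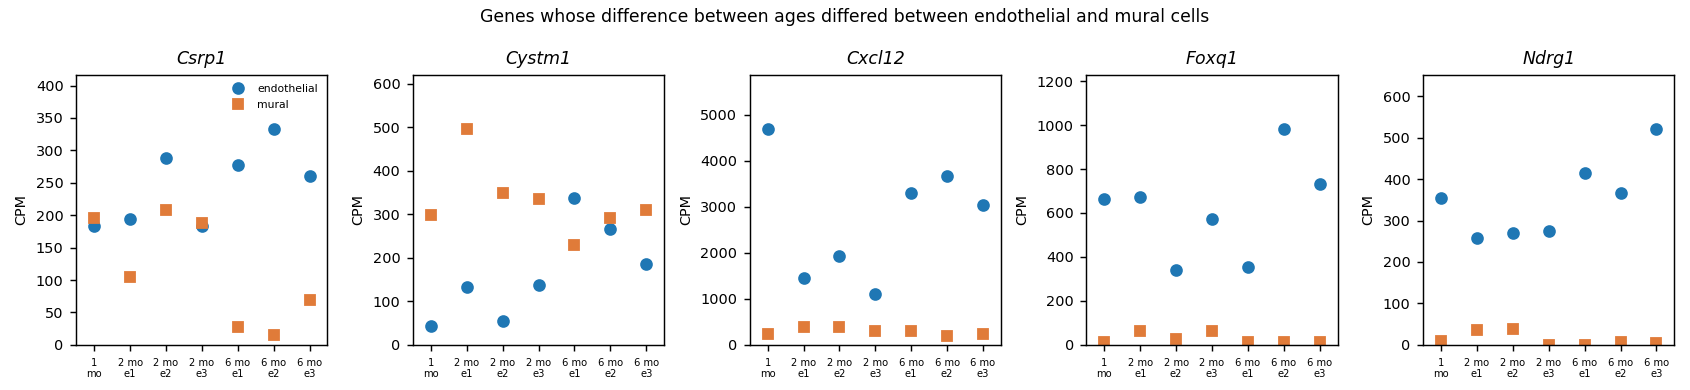
Level in CPM (vertical axis, from 0) in each experiment of the 5 genes whose difference between ages differed between endothelial cells (blue circles) and mural cells (orange squares). The Csrp1 level is lower in mural cells at 6 months and not in endothelial cells. Cystm1 is higher in endothelial cells at 6 months and not in mural cells, which is a description, since it passed the filter through the 6-month endothelial cells.

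The cells were collected on Nestin-GFP, so the reporter elements were read in each experiment. The eGFP transgene was at 643 CPM, then 217, 252 and 274, then 119, 200.1 and 87.0 CPM in endothelial cells, and at 3001 CPM, then 1560, 3317 and 3869, then 1842, 1991 and 1157 CPM in mural cells. The endothelial level was lower in 7 of 7 experiments, by a mean of 3.37 ± 0.63 (SD) on the scale log2(CPM + 1), with p = 0.0156 in a two-sided exact sign-flip permutation test over experiments, the smallest p that 7 experiments allow. In cells thinned to 1500 UMIs, 48.8% of endothelial cells held eGFP at 1 month, 21.7, 66.7 and 30% at 2 months and 16.7, 20 and 13.6% at 6 months, of which the second 2-month value rests on 3 cells and the third on 10. Among mural cells thinned in the same way the shares were 95.6%, then 84.6, 100 and 66.7%, then 87.0, 90.9 and 73.7%, with 6 and 3 cells behind the second and the third 2-month value. Microglia carry the transgene but were presumed not to express it, which was not tested. They had 1.53 and 0 CPM of eGFP in the 2 experiments that held enough of them. Cells with oligodendrocyte markers had 52.1 CPM, then 138, 221 and 232, then 140, 166 and 106 CPM, which the endothelial level exceeded in 5 of 7 experiments. Without thinning, 42.5% of these cells held eGFP, against 0.583% of microglia. Whether cells with oligodendrocyte markers express eGFP themselves or hold it as background was not tested. In the first and the third 6-month experiment the endothelial level lay below that of cells with oligodendrocyte markers, while in the first it lay above the 0 CPM of microglia (16.7 against 0% of thinned cells), so detection in the first depends on the background chosen. In the first 2-month experiment 640 of the 643 microglia came from the library that also took GFP-tdT- cells, which held 17 of the 124 endothelial cells, so there the microglia were sorted through other gates than most endothelial cells and do not give the background of the library that held those. Against microglia the mean difference, with gate and cell type not told apart in that experiment, was 6.67 over the 2 experiments on log2(CPM + 1) and 3.99 on log2(CPM + 10), in which an exact test cannot give a p below 0.5.

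Transcripts of Nes itself showed the opposite order. Nes (chr3:87971078-87980451), the intermediate filament gene from which the reporter takes its control sequence, was at 249 CPM, then 83.1, 144 and 68.6, then 257, 450.3 and 248 CPM in endothelial cells and at 113 CPM, then 80.3, 0 and 62.7, then 55.8, 104 and 152 CPM in mural cells. It was higher in endothelial cells in 7 of 7 experiments, by a mean of 1.93 ± 2.47 (SD) on the scale log2(CPM + 1), and in 2 of the experiments at 2 months the levels nearly coincided. The size rests largely on the second 2-month experiment, where mural cells held 0 Nes UMIs and no thinned cell of either type held any. Without it the mean was 1.05. The intact reporter cassette (tdTomatoLoxP), read from the unrecombined locus, was at 2870 CPM, then 2465, 2090 and 2217, then 4847, 4270 and 3795 CPM and had rank 13 by mean CPM among genes other than mitochondrial, ribosomal and haemoglobin genes. It was lower than in mural cells in 7 of 7 experiments (mean difference -0.97 ± 0.21). The recombined elements WPRE and bGHpolyA together were at 72.0 CPM, then 87.7, 72.1 and 137, then 79.1, 117 and 118 CPM, again lower than in mural cells in each experiment (-1.15 ± 0.58). Microglia held 49.6 and 592 CPM of the recombined elements, so the 2 experiments went opposite ways. The comparisons of Nes and of the intact and recombined reporter with mural cells were added after their values were seen and are given as descriptions. Under a call of recombined cells from fewer than 4 intact and more than 1 recombined UMIs, with both limits doubled for Version 3 libraries, 0 of 348 endothelial cells were called (which allows up to 0.862%, or 3 of 348, the floor used here for a count of 0 and not an exact interval), against 5 of 887 mural cells and 1500 of all 24376 cells (6.15%).

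**Figure D5:**
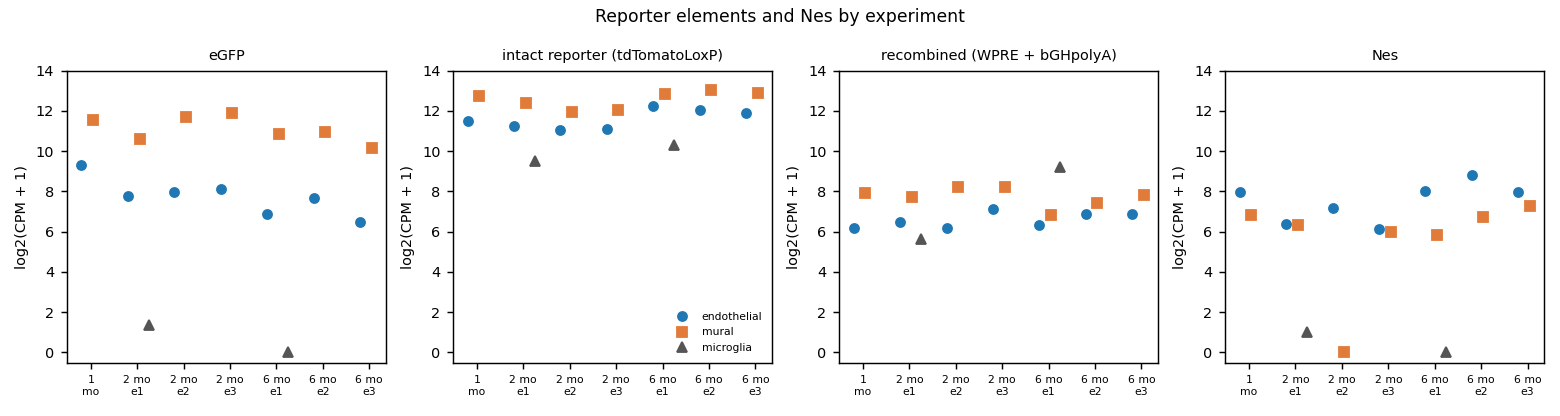
Level of eGFP, the intact reporter, the recombined reporter and Nes on the scale log2(CPM + 1) in each experiment, for endothelial cells (blue circles), mural cells (orange squares) and the 2 experiments with at least 10 microglia (grey triangles). Endothelial points lie below the mural points for eGFP in all 7 experiments and above them for Nes.

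Markers of other cells were low in the endothelial cells but not evenly so. Of 10 mural markers outside the rule, Anpep, Atp13a5 and Myh11 had 0 UMIs and Myl9 was the most abundant, and their sum was 33.2 CPM, then 32.3, 18.02 and 22.9, then 19.8, 167 and 74.5 CPM. Of the fibroblast and choroid plexus genes, Dcn, Col1a1, Col1a2, Lum and Ttr had 0 UMIs, while Enpp2 was present, at 77.1 CPM in arterial-marker and 39.6 CPM in venous-marker cells. The 8 neuron and neuroblast markers summed to 22.2 CPM, then 23.1, 847 and 251, then 0, 0 and 18.6 CPM, with Igfbpl1 the most abundant and Dcx at 0. The second 2-month experiment, the shallowest by median UMIs per cell, stood out in this list and in the oligodendrocyte list, where Mbp reached 685 CPM. The astrocyte and stem cell list was carried by Apoe, at 1693 ± 423 CPM (SD, n = 7) with a UMI in 77.6% of members, while Gfap had 0 UMIs.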

How the data were processed

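Single-cell transcriptomes of sorted dentate gyrus cells were measured in 8 libraries from 7 experiments, each pooling male and female mice. The deposited values are counts of UMIs per gene and barcode. Per the study's methods and the submitters' processing notes, the authors mapped reads with Cell Ranger 3.0.2 to mm10 with reporter sequences added and merged libraries without depth normalization, and cutadapt 1.18 and Seurat are also named. Here, barcodes were filtered and endothelial cells chosen as stated in the opening of the report. No doublet caller was run, and the limits on mural and other genes take out mixed barcodes in part. Mural cells and microglia were chosen likewise, by at least 3 of the 5 mural genes or of 7 microglial genes and at most 1 gene of each other set.

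UMIs were summed over the cells of each experiment with at least 10 cells. Tests covered genes detected in no less than 20% of the cells of at least 1 of the groups compared (for differences of age effects, of endothelial cells alone) and used edgeR 4.0.16 (quasi-likelihood F test, TMM scaling, R 4.3.3) and adjusted over all genes tested by Benjamini-Hochberg, with a threshold of 0.05, and the 19 selection genes were not tested. Endothelial and mural cells, and the marker classes, were compared with experiment as a block. eGFP levels were compared by exact sign-flip tests over experiments (scipy 1.17.1) on log2(CPM + 1). DESeq2 1.42.0, other scalings, filters and cell sets, and leaving out each experiment were the alternatives, and the code was tested on simulated data. Haemoglobin genes were left out of CPM totals after their levels were seen.

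Genes named were, among those called with a mean of at least 50 CPM and groups that do not overlap, up to 12 in each direction, up to 4 called members of each of 28 gene lists by smallest p or the 2 of highest CPM where none was called, and the most abundant marker of each other cell type. Every called gene was also named where a comparison had few. Other genes in the text illustrate lists and were chosen after their values were seen. The members and lists were chosen with earlier results of these data known. A comparison of age effects with microglia could not be fitted, since 2 experiments held at least 10 of them. Some genes that this rule names are not reported here. Positions are from GENCODE M21 on GRCm38.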

Additional observations from a re-analysis of the deposited data

Results flagged for a closer look

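The share of endothelial cells among filtered cells had 1 experiment far from the others, the first at 2 months with 2.96%, whose gap to the next highest value (1.503%) made up 0.640 of the whole range of the 7 experiments. The difference of Nes between endothelial and mural cells had 1 value far from the rest, in the second 2-month experiment, with a gap of 0.701 of the range, where mural cells held 0 Nes UMIs. Over many such checks, chance alone marks about 1 group in 20.

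The age effect differed between endothelial and mural cells, in log2 units of endothelial minus mural, for Csrp1 (2.83) and Cystm1 (2.50) between 6 months and 1 month. Between 6 and 2 months it differed for Csrp1 (1.95), Cxcl12 (1.66), Foxq1 (2.38), Ndrg1 (3.10) and Cystm1 (1.48). These come from the interaction term of the edgeR fit and are given without an explanation. Between 6 months and 1 month Cystm1 passed the filter only through the 6-month endothelial cells, so that call is not read as a result.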

How the results depend on the processing

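The age comparisons rest on sums of 22 to 124 shallow cells per experiment, with a single experiment at 1 month. The 8 genes called between 1 and 6 months were 5 with total UMIs, 0 with DESeq2 (41 unadjusted), 5 with filterByExpr, 4 with at least 4 endothelial genes per cell, 5 without the GFP-tdT- library (added after seeing the data) and 2 to 13 with each experiment left out. Between 6 and 2 months 173 became 64 with DESeq2, 113 with no gene filter and 81 to 199 with an experiment left out, and 81 with the experiment number as a replicate block. The numbers do not pair the experiments, since same-numbered samples correlated at -0.05, -0.06 and 0.07. The 1446 genes called against mural cells were 3322 with no gene filter, 544 in cells with no mural or other selection genes, 1277 with no replicate block and 1241 to 1541 with an experiment left out.

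The 2 genes with an age effect that differed from mural cells between 6 months and 1 month became 1 with total UMIs, 0 with DESeq2 (30 unadjusted), 5 with no gene filter, 6 with filterByExpr and 2 to 9 with an experiment left out. The 5 between 6 and 2 months became 1 with DESeq2, 16 with filterByExpr, 3 without the deepest 5% of cells, 2 without haemoglobin-rich cells, 3 without the GFP-tdT- library and 2 to 15 with an experiment left out. The 16 genes between marker classes became 2 with DESeq2, 46 with no gene filter, 2 with no replicate block and 11 to 24 with an experiment left out, and RLE scaling gave 12 higher and 9 lower. The eGFP difference from microglia of 6.67 became 3.99 on log2(CPM + 10), 5.80 in cells with no mural or other selection genes and 6.43 to 6.90 with an experiment left out. The eGFP difference from mural cells of -3.37 became -3.55 in cells with no mural or other selection genes, where fewer experiments had enough cells for the exact test to pass, and -3.56 to -3.27 with an experiment left out. The recombined reporter against microglia, -1.04, turned to 1.34 in cells with no mural or other selection genes and to 0.81 without the first 6-month experiment (range -2.89 to 0.81); the cause was not tested. The age and class comparisons could not be fitted in cells with no mural or other selection genes, nor 6 months against 1 month without the 1-month experiment. Of the genes followed through these alternatives, which were the called genes that the rule names and others given with an adjusted p, 0 changed direction.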
